A study of Mus musculus with 14 samples.

Results

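Compact H3K27me3 regions are short, isolated stretches of Polycomb-marked chromatin in mouse regulatory T cells. They were selected on the 4 deposited H3K27me3 peak lists of the series: peaks of the 19 autosomes were merged wherever they shared at least 1 bp, and a merged region was kept if it was under 10000 bp wide, held a peak of each of the 4 lists and had no other merged region within 5000 bp of either edge. Of 62035 merged regions, 172 met the rule. The presence of a peak in every library, the width limit and the isolation of these 172 regions are therefore set by the choice and are no findings.

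The libraries came from CUT&Tag, in which an antibody directs a transposase to chromatin so that the marked DNA is cut out and sequenced. The cells were regulatory T cells sorted by FACS, with 140000 cells per sample. Controls are labelled ChimeraWT and knockouts ChimeraKO. The genotypes given are Foxp3YFPcre;wt and, with a deletion of Slc31a1, the gene of the copper importer CTR1, Foxp3YFP-Slc31a1△;wt. Both genotypes carry a YFP allele of Foxp3, the gene of the defining transcription factor of regulatory T cells, and the sources used here do not say how the chimeras were made. H3K27me3 was mapped in chimeras 1 and 2 of each genotype and H3K27ac, which was not used to choose the regions, in chimeras 2, 3 and 4 of each genotype, numbered here as replicates 1 to 3 of that mark, as in the labels. The ages of the mice are not given in the sources used here. Whether each library stems from its own animal is not said in the labels. The p-values below therefore cover only the spread among these libraries, which may be technical.

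H3K27me3 is laid down by Polycomb repressive complex 2, whose catalytic subunits are EZH2 and EZH1, and it is bound by the canonical Polycomb repressive complex 1. In mammals the mark is typically nucleated at unmethylated CpG islands of silent genes and then spreads along the chromatin, so that the mark can form anything from a short island to a domain of many kilobases. H3K27ac occupies the same lysine and marks active promoters and enhancers, so that 1 histone tail cannot carry both. In T cells Polycomb complexes are known for keeping developmental genes and the genes of other helper lineages silent.

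On the autosomes the H3K27me3 lists held 7507 peaks in control 1, 43253 in control 2, 36053 in knockout 1 and 56634 in knockout 2. Control 1 stood apart. Its list began at a −log10 p of 2.02 against at least 9.01 in each of the others, it held 36 distinct p-values in all, and 7408 of its peaks (98.7%) had a −log10 q of 0, which is a p adjusted within the list of 1. None of the peaks of the other 3 lists had a q of 1. The H3K27ac lists held between 20900 and 31337 autosomal peaks. The sources used here do not name the library that the peak caller used as background, and its part in any difference between the genotypes was not tested.

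Of the 4 lists, that of control 1 limited the selection most. Isolated regions under 10000 bp numbered 5232, and 606 of them had a peak in control 2, knockout 1 and knockout 2 but none in control 1. Only 41 lacked knockout 1 alone, 2 lacked knockout 2 alone and 0 lacked control 2 alone. The 172 regions made up 72.0% of the isolated compact regions with a control 1 peak, 7.56% of those with a control 2 peak, 11% of those with a knockout 1 peak and 4.28% of those with a knockout 2 peak. At 170 of the 172 regions, the strongest peak of control 1 had a −log10 q of 0. The exceptions were chr14:54542498-54545455, with 1.87, and chr16:18592084-18598486, with 0.576. Asking for a peak in the other 3 lists alone would have given 778 regions in place of 172.

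The regions missing from control 1 were shorter and weaker in the lists that did hold them. Their merged width had a median of 1798 bp, against 4916 bp for the 172. In control 2 the strongest peak of each region stood at a median percentile of 58.6 of the −log10 p values of that list, against 93.6 for the 172. In knockout 1 the median percentiles were 60.7 and 88.8, and in knockout 2 they were 79.1 and 95.3. These values are a description, since the list of control 1 chose between the groups.

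Of the 172 regions, 76 were between 4 and 6 kb wide, the most of any width class. Widths ran from 659 to 9746 bp, with quartiles of 3714 and 6040 bp, and the regions spanned 850.2 kb together. By width, 12 lay under 2 kb, 38 between 2 and 4 kb, 33 between 6 and 8 kb and 13 at 8 kb or more. The narrowest was chr6:5356588-5357246 (659 bp), with 561 bases under peaks in control 1, 649 in control 2, 310 in knockout 1 and 542 in knockout 2. The widest was chr8:75935112-75944857 (9746 bp), with 2000, 7301, 9325 and 9559 bases in the same order. In the narrowest region knockout 1 had the fewest bases, and in the widest region control 1 did. The next narrowest, chr4:88489432-88490134 (703 bp), had 355, 627, 506 and 638 bases, with control 1 again the lowest.

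The limits of the rule cut through a continuous range of gaps but not of widths. Next to the widest region came chr8:120952692-120962237 with 9546 bp and chr11:82274367-82283631 with 9265 bp. No isolated region found in every list was 10000 bp or wider: all 138 regions of that width had a neighbour within 5000 bp, so that raising the width limit to 20000 bp left the number at 172. Just inside the gap limit lay chr9:121822329-121827359, with its nearest neighbour 5191 bp away, chr6:29638836-29640746 at 5206 bp and the widest region at 5245 bp. Just outside it lay chr10:75393185-75398259 at 4958 bp, chr4:137196238-137198232 at 4930 bp and chr14:55729113-55733478 at 4912 bp.

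Compact regions lay on every autosome. The nearest other merged H3K27me3 region was a median of 28858.5 bp away, with quartiles of 11078 and 65712 bp. At 41 regions it was under 10 kb away and at 32 over 100 kb. The nearest other compact region was a median of 3.66 Mb away and never closer than 220.8 kb, and 37 of the 172 had another within 1 Mb. Chromosome 1 held the most, 16, and chromosome 17 the fewest, 3. Of the 3857 regions found in every list, the compact ones made up a share from 2.21% on chromosome 17 to 6.58% on chromosome 1.

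**Figure D1:**
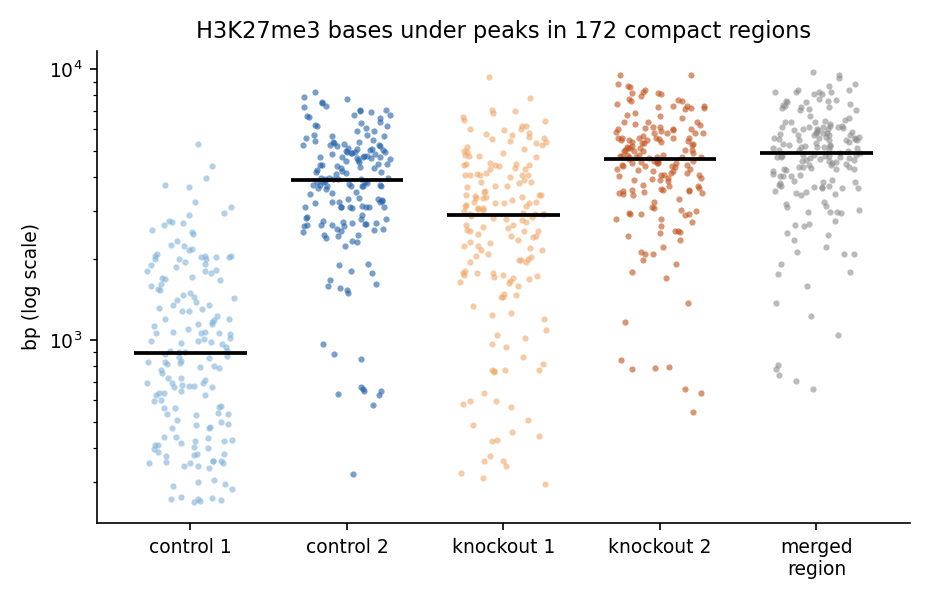
Bases under H3K27me3 peaks (bp, log scale) in each of the 172 compact regions, for the 4 libraries and for the merged region. Each point is 1 region and the black line is the median: 893 bp in control 1, 3898 bp in control 2, 2896 bp in knockout 1, 4665 bp in knockout 2 and 4916 bp for the merged region, so that the knockouts do not stand on 1 side of the controls.

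Within the regions, the length under peaks differed between the libraries of each genotype as much as between genotypes. The median over the 172 regions was 892.5 bases in control 1, 3897.5 in control 2, 2896 in knockout 1 and 4665 in knockout 2. The knockout libraries lay on either side of control 2, and control 1 was the shortest library at 147 of 172 regions. The mean of the library medians was 2395 ± 2125 bases for controls against 3780 ± 1251 for knockouts (SD over 2 libraries each, p = 0.667 by a two-sided exact permutation test). Such a design cannot go below 0.33. The rule also needed some of these bases in every list, so the lengths compared depend on the choice. Without control 1 the difference turned from 1386 bases more to 117 bases fewer in the knockouts. As a share of the merged region, peaks covered a median of 20.2% in control 1, 81.7% in control 2, 63.8% in knockout 1 and 97.1% in knockout 2.

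Both knockouts exceeded both controls in covered length at 40 regions and both were under both controls at 1. Of all 3857 regions found in every list, 651 (16.9%) had both knockouts above both controls and 5 (0.130%) had both below. The short list of control 1 enters each of these comparisons, and its part in them was not tested.

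Regions kept their rank in length between some libraries and not between others. Across the 172 regions, Spearman's rho of the covered length was 0.860 between control 2 and knockout 2, 0.711 between the knockouts and 0.618 between control 2 and knockout 1. It was 0.459 between the controls, 0.351 between control 1 and knockout 2 and 0.130 between control 1 and knockout 1. All of these share the limit that the merged width sets, and regions of 1 library are not independent. The highest value joined the libraries of chimera 2 of both genotypes, and the lowest joined those of chimera 1.

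No compact region was called for covered length between the genotypes by the test across all regions. The rule used these same bases, since each region had to have some in all 4 lists. Regions absent from a library could not enter, so the count of calls depends on the choice. With limma on log2(bases + 100), after centring on regions that every library covered, 0 of the 172 were called at an adjusted p under 0.05, and the lowest adjusted p was 0.506. Of all 36141 regions tested, 0.191% were called. At an unadjusted p under 0.05, 4 compact regions were lower and 0 higher in knockouts, while 2.33% of all regions tested were lower and 5.22% higher. The log2 change, knockout minus control, had a median of -0.04 over the 172, with quartiles of -0.53 and 0.49, against 0.62 over all regions tested. The centring uses regions such as these and brings their median near 0. Without it the medians were 0.78 and 1.43. At an unadjusted limma p under 0.05, 0 compact regions were then lower and 1 higher. Of all 36141 regions, 22 were then lower and 5588 higher. Leaving out control 2 gave 19 lower and 7 higher calls among the 172, in a fit that called 4.25% of all regions lower and 18.1% higher. Leaving out control 1 gave 1 higher call, in a fit that called 0.333% of all regions higher. Each of these fits leaves a single control, which is assumed to vary like the knockouts.

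The 4 regions with an unadjusted p under 0.05 and the 1 called without control 1 were singled out after their values were seen. Without the centring, 0 compact regions were lower at that limma p. At chr12:111235484-111244119 (8636 bp), 5308 and 7927 bases lay under peaks in controls 1 and 2 against 2602 and 8636 in knockouts 1 and 2. Only knockout 1 was under the controls, and knockout 2 was covered from end to end. The log2 change was -1.25 (SE 0.478, 2 libraries a group, limma adjusted p = 0.506).

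At chr7:140870465-140876574 (6110 bp) the controls had 3108 and 4418 bases and the knockouts 359 and 6110, with a log2 difference of -1.98 (SE 0.765, limma adjusted p = 0.512). At chr14:70877052-70883177 they had 2239 and 4771, and 342 and 5799. At chr11:97328793-97334304 they had 4390 and 5263, and 2428 and 4735. In all 4 regions knockout 1 was the shortest library, and in 3 of them knockout 2 was the longest. Without control 2 the 4 passed the threshold, with limma adjusted p between 0.000657 and 0.00377, and without control 1 none did, with 0.540 to 0.749.

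The region with the opposite pattern was chr9:42612749-42616572 (3824 bp). It had 387 and 576 bases in controls against 3301 and 3570 in knockouts, so that in raw bases the groups were far apart. The 387 of control 1 lay near the lower quartile of that library over the compact regions, 488.75. The 576 of control 2 lay far under its own lower quartile, 2748.25. The test used centred values, so the closeness of the raw values does not carry over to it. The log2 change was 1.81 (SE 1.07, 2 libraries a group, limma adjusted p = 0.564). Without control 1 it was 2.17 (SE 0.575, limma adjusted p = 0.0495).

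The regions named next are the 8 that ranked highest by the mean percentile of −log10 p within the 4 lists, between 96.3 and 99.0. That mean gives control 1 the same weight as each other list, although 69.3% of the peaks of control 1 shared 1 p-value. The ranking therefore depends in part on the ties of that list. Folds and p-values of peaks are the authors' and hold within their own list.

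The first, chr16:18592084-18598486 (6403 bp), had 2712 and 6192 bases under peaks in controls 1 and 2 against 6025 and 6403 in knockouts 1 and 2. Its strongest peaks had fold enrichments of 4.20, 11.8, 6.18 and 10.1 in the same order. The nearest H3K27ac peak lay 4882 bp away. Length was alike in all libraries but control 1.

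The second, chr14:54542498-54545455 (2958 bp), was covered over 2651 and 2796 bases in controls against 1765 and 2735 in knockouts. Its −log10 p of 7.21 in control 1 was the maximum of that list, and its folds were 5.27, 5.45, 4.99 and 4.05. Here control 1 did not fall short: the shortest library was knockout 1. The nearest H3K27ac peak lay 3918 bp away.

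At chr5:44254121-44261668 (7548 bp) the controls had 2737 and 7268 bases and the knockouts 6983 and 7284, with folds of 3.40, 11.4, 9.24 and 11.4. The 4 summits of this region were spread over 4379 bp. At chr1:134224517-134228791 (4275 bp) the bases were 2086 and 3820 in controls against 3427 and 4237 in knockouts. In knockout 1 the latter region was marked on both sides of its centre with none over it, the shape described below. Its fold was nonetheless highest in knockout 1, at 11.1 against 3.72, 9.82 and 8.69 in control 1, control 2 and knockout 2.

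At chr14:22068330-22071456 (3127 bp) the controls had 682 and 3102 bases and the knockouts 2429 and 2998, and the 4 summits fell within 333 bp. At chr18:4633487-4637357 (3871 bp) they had 993 and 3838, and 3366 and 3598. The latter region had no other merged H3K27me3 region within 496 kb and no H3K27ac peak within 255 kb. For both regions control 1 was the low value and the other 3 libraries lay close together.

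At chr4:107886382-107891956 (5575 bp) the controls had 3982 and 5432 bases and the knockouts 4755 and 5434. At chr1:17166663-17170708 (4046 bp) they had 1125 and 3231, and 2929 and 3883. The latter region was the most isolated of the 8, with 562 kb to the next H3K27me3 region and 407 kb to the nearest H3K27ac peak. None of the 8 was called between genotypes (limma adjusted p between 0.564 and 0.993). The percentile in control 1, which entered the ranking, was 90.1 or more in all 8. A fit without control 2 has control 1 as its only control, so it cannot judge regions chosen in part by that list.

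**Figure D2:**
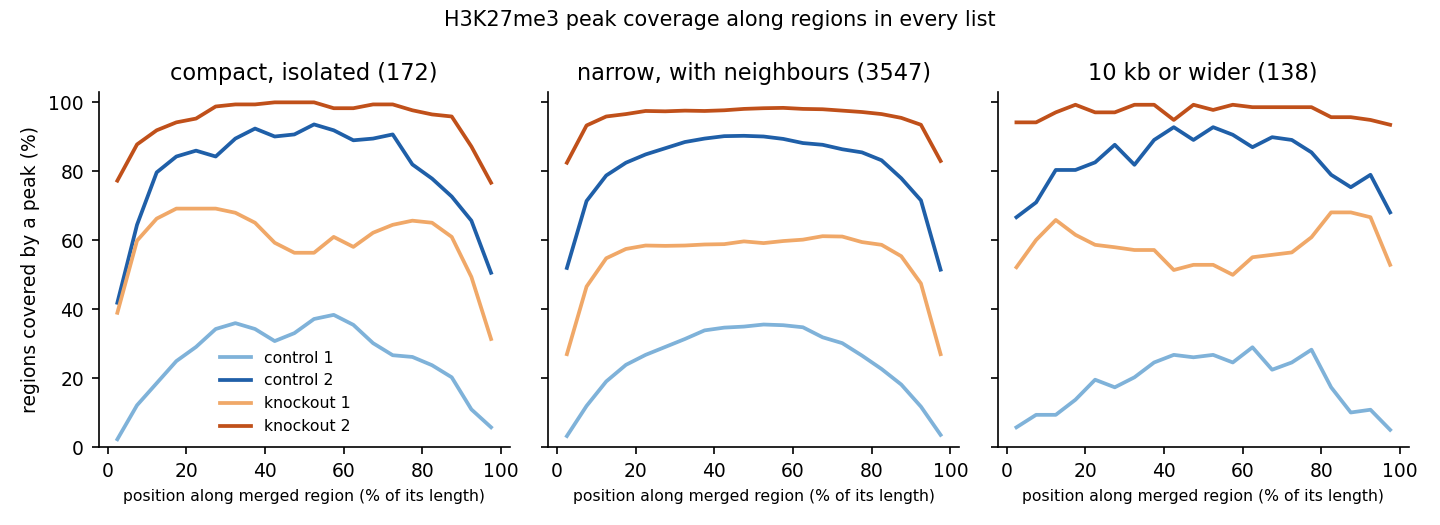
Share of regions (%) covered by an H3K27me3 peak at 20 equal steps along the merged region, for each library, in the 172 compact regions, the 3547 narrow regions with a neighbour and the 138 regions of 10 kb or wider, all found in every list. In the compact regions knockout 1 dips near the centre, to 56.4%, from 69.2% toward one edge, while control 2 and knockout 2 are highest near the centre.

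The centre of the compact regions was mostly under a peak in control 2 and knockout 2, less often in knockout 1 and least often in control 1. Peaks of control 2 and knockout 2 covered a median of 81.7% and 97.1% of the merged region. Their high shares and few splits at its centre are thus largely set in advance. The base at the centre of the merged region was under a peak at 159 of 172 regions in control 2 (92.4%), at 172 in knockout 2 (100%), at 94 in knockout 1 (54.7%) and at 60 in control 1 (34.9%). In knockout 1 the share was 59.0% for the narrow regions with a neighbour and 55.1% for those of 10 kb or wider. In 56 compact regions (32.6%) knockout 1 had peaks on both sides of the centre and none over it. Control 2 showed this at 9 regions, control 1 at 38 and knockout 2 at 0. The plot of coverage along the region shows the same: knockout 1 fell from 69.2% of the regions to 56.4% at the centre and returned to 65.7%. The shape thus differed between the libraries of each genotype, and it was seen in a control as well as in a knockout.

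The split around the centre was more frequent in wider regions in both knockout 1 and control 1. Of the 86 wider compact regions, 37 were split in knockout 1 (43.0%), and of the 86 narrower ones 19 (22.1%). In control 1 the numbers were 28 (32.6%) and 10 (11.6%). Among the 138 regions of 10 kb or wider, 44.2% were split in knockout 1 and 49.3% in control 1, and among the 3547 narrow regions with a neighbour 24.3% and 17.0%. Knockout 1 also held more peaks per region, with 2 or more peaks at 125 of the 172, against 91 in control 2, 74 in control 1 and 26 in knockout 2. The highest number in 1 region was 6 peaks, in knockout 1.

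**Figure D3:**
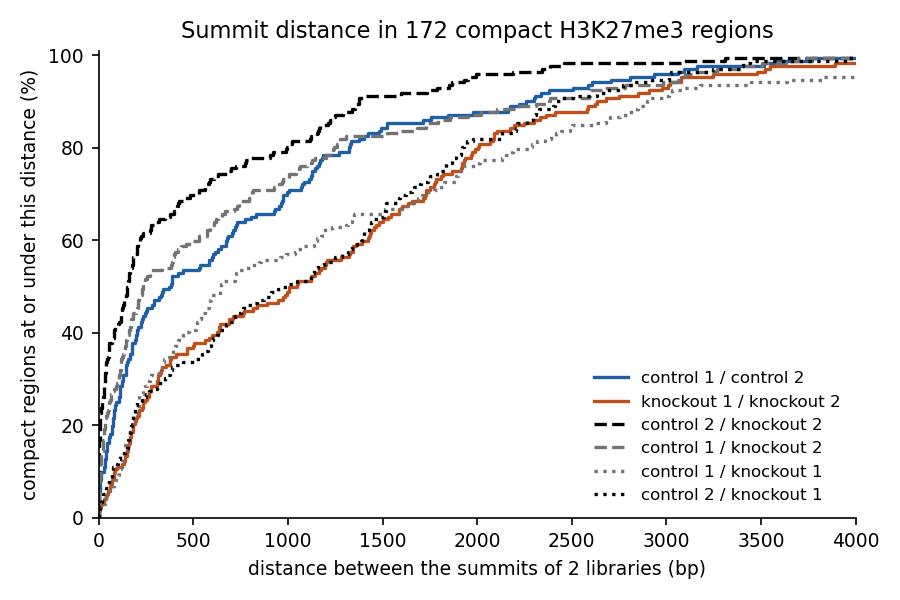
Cumulative share (%) of the 172 compact regions by the distance (bp) between the summits of the strongest peaks of 2 libraries, for the 6 pairs of libraries. The curve of control 2 and knockout 2 rises fastest, with a median of 152.5 bp, and the 3 curves that involve knockout 1 rise slowest.

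Between control 2 and knockout 2 the summits of the strongest peaks were a median of 152.5 bp apart, and within 500 bp at 120 regions (69.8%). The controls were 378 bp apart (92 regions within 500 bp) and the knockouts 1027 bp (64 regions). Control 1 and knockout 2 were 234 bp apart, control 1 and knockout 1 were 645.5 bp apart, and control 2 and knockout 1 were 985.5 bp apart. The closest pair thus joined libraries of different genotypes. Among the other 3685 regions found in every list, the same pairs gave 161 bp for control 2 and knockout 2, 248 bp for the controls and 676 bp for the knockouts.

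The summits of control 1 mostly fell inside the peaks of the longer lists. They lay under a peak of control 2 at 169 of 172 regions (98.3%), of knockout 2 at 170 (98.8%) and of knockout 1 at 133 (77.3%). Peaks of these lists covered a median of 81.7%, 97.1% and 63.8% of the region, so high shares are largely set in advance. In the narrow regions with a neighbour the shares were 97.5%, 99.6% and 74.5% in the same order. At the 120 regions where the summits of control 2 and knockout 2 fell within 500 bp of each other, their midpoint lay under a control 1 peak at 86 (71.7%) and under no knockout 1 peak at 27 (22.5%). Of those 27, 16 were covered in control 1, the list with the fewest peaks.

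A peak in every list did not mean that every list marked the same bases. The stretch under peaks of all 4 lists at once had a median of 648 bases, or 14.2% of the region, and ran up to 3451 bases. At 16 of the 172 regions it was 0. Leaving control 1 aside, the stretch shared by the other 3 lists had a median of 2384.5 bases (52.1% of the region) and was 0 at 4 regions.

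No compact region carried an H3K27ac peak. None of the 172 overlapped one in any of the 6 lists, and the closest peak was 1514 bp away. Overlap was rare for all merged H3K27me3 regions, at 91 of 62035 (0.147%). It was 0 of 3547 for the narrow regions with a neighbour, 0 of 138 for those of 10 kb or wider and 1 of 606 for the isolated regions missing from control 1. A list of peaks shows only where enrichment passed the caller's threshold, so weaker acetylation is not covered by these counts.

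At a distance of up to 5 kb, acetylation was found beside some compact regions. An H3K27ac peak of at least 1 library lay within 5 kb of 12 of the 172 (6.98%). The share was 1.95% for the narrow regions with a neighbour and 0% for the regions of 10 kb or wider. It was 4.79% for the 606 isolated regions missing from control 1 and 5.39% for the 4454 isolated narrow regions in other sets of lists. Over all merged regions it was 3.35%. The rule keeps other H3K27me3 regions, but not acetylation, out of these 5 kb, and the difference in shares was not tested. Within 50 kb the share was 49.4%, close to the 49.8% over all merged regions. The median distance to the nearest H3K27ac peak was 50.9 kb, against 52.0 kb for the narrow regions with a neighbour and 60.2 kb for those of 10 kb or wider. It was 85.5 kb for the 606 and 51.4 kb for the 4454.

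**Figure D4:**
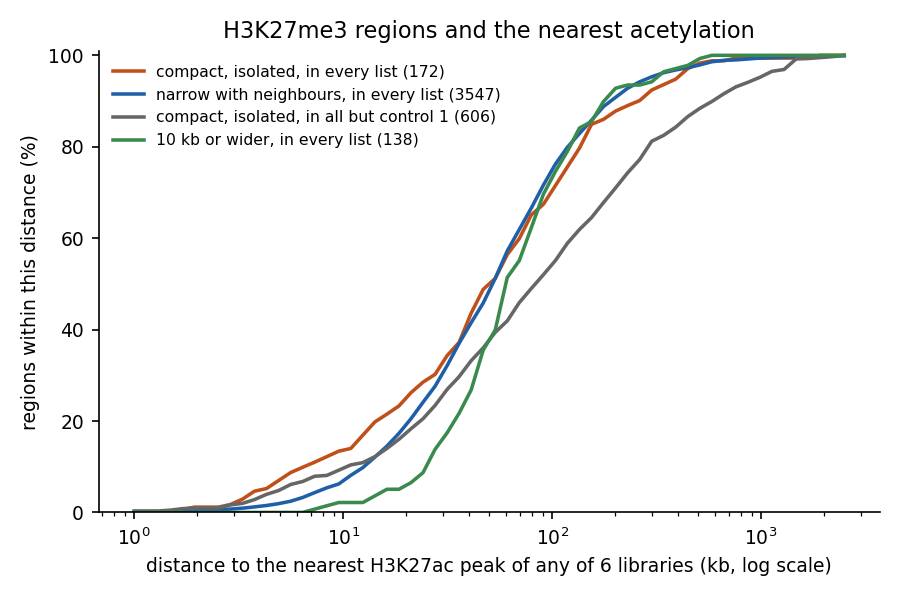
Cumulative share (%) of H3K27me3 regions by distance (kb, log scale) to the nearest H3K27ac peak of any of the 6 libraries, for the 172 compact regions and 3 other classes. At 5 kb the compact regions are at 6.98% and the regions of 10 kb or wider at 0%, and at 50 kb the compact regions are at 49.4%.

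Nearby acetylation was also counted for each library. The number of compact regions with an H3K27ac peak within 5 kb was 10, 8 and 9 in controls 1 to 3 against 8, 4 and 6 in knockouts 1 to 3. The means were 9 ± 1 and 6 ± 2 (SD over 3 libraries each, p = 0.2 by a two-sided exact permutation test, when 0.1 is the lowest value it can reach), and the groups met at 8. With lists cut to equal length the counts were 7, 6 and 5 against 6, 4 and 6 (p = 0.7, same exact test). The H3K27ac lists of knockouts 2 and 3 also held the fewest autosomal peaks, 23633 and 20900 against at least 27410 in the other 4. By bases under peaks knockout 2 had the most, 46.3 Mb, and knockout 3 the fewest, 36.9 Mb, against 41.3 to 42.5 Mb in the other 4. The part of list length in the count was not tested beyond the equal lists.

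Next to the 12 compact regions lay 14 acetylated regions, 287 to 1844 bp wide with a median of 882.5 bp, and 9 were covered in at least 3 libraries and could be tested. By limma on all 21951 H3K27ac regions tested, of which 2.38% were called, 0 of the 9 were called at an adjusted p under 0.05, and 1 was lower and 0 higher at an unadjusted p under 0.05. At that threshold 11.2% of all regions tested were lower and 6.01% higher, and 1 of 9 is close to that share. The median log2 change over the 9 was -1.30, against -0.06 over all regions tested. It was -0.43 without knockout 2, -0.77 without knockout 3, -1.80 without knockout 1 and -0.29 over the 8 tested with lists of equal length. Without knockout 1, 3 of the 9 were called lower, in a fit that called 8.67% of all regions lower. These 3 had 0 bases in knockouts 2 and 3, so they passed the filter of at least 3 libraries through the controls alone. A region covered in knockouts alone could not enter that fit, so the filter favours lower calls.

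**Figure D5:**
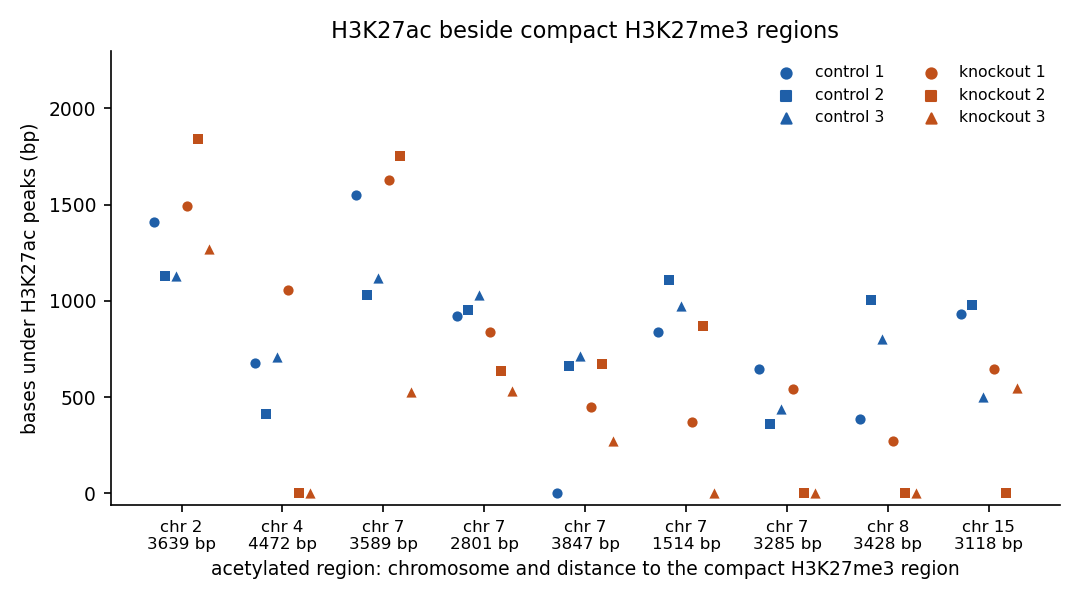
Bases under H3K27ac peaks (bp) in each of the 6 libraries for the 9 acetylated regions covered in at least 3 libraries and lying within 5 kb of a compact H3K27me3 region, labelled by chromosome and distance. Controls are blue and knockouts orange. At 3 of the 9, knockouts 2 and 3 are at 0 while all 3 controls and knockout 1 are not.

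The 3 regions called without knockout 1, which entered that fit through the controls alone, are given as values. The 1 with an unadjusted p under 0.05 was chr8:47002601-47003606, 3428 bp from the compact region chr8:46992006-46999172. It had 387, 1006 and 800 acetylated bases in controls 1 to 3 against 274, 0 and 0 in knockouts 1 to 3, with a log2 difference of -2.37 (SE 0.772, 3 libraries a group, limma adjusted p = 0.168). Every knockout lay under every control, but how often this holds over all H3K27ac regions was not counted. Without knockout 1 its limma adjusted p was 0.0445.

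Another was chr4:116007052-116008250, 4472 bp from chr4:115998046-116002579, with 680, 414 and 708 bases in controls against 1057, 0 and 0 in knockouts. The third, chr7:115830234-115830907, lay 3285 bp from chr7:115834193-115839194 and had 645, 358 and 441 bases in controls against 541, 0 and 0 in knockouts. In both, knockout 1 was within or above the range of the controls. Their limma adjusted p were 0.510 and 0.411, and 0.0421 and 0.0452 without knockout 1.

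Acetylation in all 6 libraries was seen beside 3 compact regions with a single acetylated neighbour. The longest, chr2:31770403-31772246, lay 3639 bp from chr2:31775886-31780663 and had 1411, 1131 and 1128 bases in controls against 1493, 1844 and 1270 in knockouts, with a log2 difference of 0.26 (SE 0.153, 3 libraries a group, limma adjusted p = 0.456). A second, chr7:12771246-12773044, had 1551, 1033 and 1118 bases in controls against 1629, 1755 and 527 in knockouts. The third, chr7:16723459-16724641, 2801 bp from chr7:16727443-16730399, had 924, 951 and 1033 in controls against 837, 637 and 532 in knockouts (limma adjusted p = 0.367). At the last the groups did not overlap, and at the other 2 they did. How often groups do not overlap over all H3K27ac regions was not counted, so this only describes single regions. By the different measure of the limma threshold, 2.38% of all H3K27ac regions tested passed.

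The compact region closest to acetylation was chr7:46043337-46051735 (8399 bp). On 1 side of it lay 3 acetylated regions, the nearest 1514 bp away, at chr7:46040609-46041822. That one had 837, 1108 and 973 bases in controls against 371, 871 and 0 in knockouts (limma adjusted p = 0.362), with knockout 2 within the range of the controls. Another, chr7:46038778-46039489 at 3847 bp, had 0, 664 and 712 bases in controls against 451, 671 and 271 in knockouts (limma adjusted p = 0.848). The remaining one was covered in control 2 alone, over 546 bases. All 6 libraries, knockout 3 included, thus had a peak within 5 kb of this compact region.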

How the data were processed

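Of 14 samples, 10 had a peak list and 4 IgG samples were not analysed here. Per the submitters' processing notes, reads were handled with Bowtie2 2.2.4, deepTools 3.5.1 and MACS2, on build mm39. Each sample has 1 deposited list with coordinates, a score, a fold enrichment (a ratio), the −log10 p-value and −log10 q-value of each peak, all made by the authors. The lists hold no read counts, so depth is unknown.

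Here the quantity compared was the number of bases under peaks in each merged region. It was tested as log2(bases + 100) with limma 3.58.1 (R 4.3.3, trend and robust), knockout against control, over regions covered in at least 2 H3K27me3 or 3 H3K27ac libraries, with Benjamini-Hochberg adjustment at 0.05, and tested on simulated data. Values were centred on the median of regions covered in every library. Values per library were compared by exact permutation. The 8 regions named first ranked highest by mean percentile of −log10 p. Members and lists were chosen with earlier results of these data known. No reference of build mm39 was used here, so regions carry no gene names, the planned gene lists, promoters and sequences were left out, and the cell type was not checked against markers.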

Additional observations from a re-analysis of the deposited data

How the results depend on the processing

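The number of compact regions was 87 with a width limit of 5000 bp, 77 where 20% of the region had to be covered in every list, 72 with peaks above the lower quartile of −log10 p of each list and 778 without control 1. Leaving out 1 library at a time, the compact regions called lower in knockouts by limma ranged from 0 to 19 and those called higher from 0 to 7, where leaving out control 2 gave 19 and 7 and called 4.25% of all regions lower and 18.1% higher. The acetylated regions nearby called lower ranged from 0 to 3, with 3 without knockout 1, where 8.67% of all regions were called lower. These 3 passed the filter of that fit through the controls alone. The cause of these ranges was not tested. The median covered length, knockout minus control, ranged from -117 bases without control 1 to 2888 without control 2. The difference in the number of compact regions near H3K27ac was 0 with an overlap of 1 bp and 0 at 1 kb, where no region had a peak. The replicate block gave 0 lower and 0 higher calls among the compact regions and 0 among the nearby acetylated regions. Over all 36141 H3K27me3 regions it called 1 lower and 0 higher, and over all 21951 H3K27ac regions 0. Pairing by number was looked at by correlating the centred values after the mean of each genotype was subtracted. Same-numbered libraries gave 0.133 for H3K27me3, where 2 libraries a group allow only this value and its negative, -0.133. For H3K27ac they gave 0.241, 0.064 and 0.015, and differently numbered libraries gave -0.188 to 0.146. The numbers were not taken as pairs. With 2 libraries a group and no depth in the lists, absence of a call does not show equal marking.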

Other observations

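The X chromosome was outside the rule. Its 1306 merged H3K27me3 regions included 4 found in every list, and 0 of these met the same limits of width and isolation. The lists held 5 peaks on that chromosome in control 1, 692 in control 2, 383 in knockout 1 and 1094 in knockout 2.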
